A study of Mus musculus with 10 samples.

Results

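The Purkinje cell markers Calb1, Pcp2, Pcp4, Car8, Itpr1, Ppp1r17, Slc1a6 and Lhx1 were followed through cerebellum of Bmal1 knockout and wild-type mice. They are 8 of the 22046 protein-coding genes in the deposited tables and were chosen by name, with earlier results of these data known. The knockout animals were Bmal1-/- and the wild-type animals Bmal1+/+ littermates, bred from heterozygous parents on a C57BL/6 background and kept on a light and dark cycle. The deletion is carried by the whole animal, and the floxed mice with L7-Cre named in the protocols are not analysed here. Age, sex and time of day at sampling are not given in the labels. Snap-frozen cerebellum was lysed, RNase I digestion of a portion left fragments covered by ribosomes (footprints), and the rest served as total RNA. Total RNA and footprints each had a column for knockout animals 1 and 3 and for wild-type animals 2 and 3, which the series describes as biological replicates, and total RNA of knockout animal 2 and wild-type animal 1 was not analysed here. All comparisons are therefore of 2 against 2 animals.

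Purkinje cells are the large GABAergic neurons whose axons are the only output of the cerebellar cortex. They receive glutamate from parallel and climbing fibres, and much of their signalling runs through metabotropic glutamate receptors, phospholipase C and the release of calcium from the endoplasmic reticulum. BMAL1 is the transcription factor that drives the circadian clock together with CLOCK by binding E-box motifs, of which CACGTG is the canonical form. The study asked how the loss of BMAL1 acts on the cerebellum of a mouse with autism-like behaviour.

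Each marker stands for a step of Purkinje cell physiology. Itpr1 (ENSMUSG00000030102, mm10 chromosome 6, 108213096 to 108551109, plus strand) encodes the receptor that releases calcium when bound by inositol trisphosphate. Car8 (ENSMUSG00000041261, chromosome 4, 8143362 to 8239041, minus strand) encodes a carbonic anhydrase-related protein without enzyme activity that binds this receptor and lowers its affinity for the ligand. Calb1 (ENSMUSG00000028222, chromosome 4, 15881264 to 15908064, plus strand) encodes calbindin, a fast calcium buffer, and Pcp4 (ENSMUSG00000090223, chromosome 16, 96467606 to 96525793, plus strand) a small protein that modulates calmodulin. Pcp2, also called L7 (ENSMUSG00000004630, chromosome 8, 3623371 to 3625545, minus strand), encodes a modulator of inhibitory G proteins. Ppp1r17 (ENSMUSG00000002930, chromosome 6, 56017497 to 56032689, plus strand) encodes G-substrate, a target of cGMP-dependent kinase that inhibits protein phosphatases once phosphorylated. Slc1a6 (ENSMUSG00000005357, chromosome 10, 78780496 to 78814765, plus strand) encodes a glutamate transporter of Purkinje cell dendrites, and Lhx1 (ENSMUSG00000018698, chromosome 11, 84518284 to 84525535, minus strand) a LIM homeodomain transcription factor of Purkinje cell differentiation.

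The knocked-out factor binds E-boxes, so the promoter windows of the markers were searched for them. RefSeq windows from 250 bases before to 50 after a gene's start (GRCm38.p6) were at hand for 4 markers, Pcp2, Pcp4, Slc1a6 and Lhx1. CACGTG, which reads the same on both strands, was in the window of Slc1a6 only, with 1 copy that begins 32 bases before the start, and it was in 7.15% of all 32851 windows. The general form CANNTG, which includes CACGTG, was in windows of Pcp2, Pcp4 and Slc1a6 and in 72.3% of all windows. The windows of Slc1a6 (chr10:78780246-78780545, plus strand), the marker with the canonical motif, and of Pcp2 (chr8:3625498-3625797, minus strand), whose gene names the L7-Cre line, are shown 5′ to 3′ with every CANNTG in capitals. Pcp2 has 4 windows in the table, and the one at the start of the annotated gene is shown.
Slc1a6: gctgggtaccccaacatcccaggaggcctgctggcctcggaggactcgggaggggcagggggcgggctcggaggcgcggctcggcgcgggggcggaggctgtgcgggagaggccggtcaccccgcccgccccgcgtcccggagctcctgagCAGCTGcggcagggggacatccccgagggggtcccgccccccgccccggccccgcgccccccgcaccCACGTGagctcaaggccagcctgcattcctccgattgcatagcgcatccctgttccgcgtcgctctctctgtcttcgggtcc
Pcp2: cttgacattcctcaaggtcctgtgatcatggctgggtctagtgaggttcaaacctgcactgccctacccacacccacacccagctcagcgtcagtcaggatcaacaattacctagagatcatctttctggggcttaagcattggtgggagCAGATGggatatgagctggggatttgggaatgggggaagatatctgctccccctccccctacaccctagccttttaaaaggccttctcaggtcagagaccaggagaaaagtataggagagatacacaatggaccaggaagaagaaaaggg
A match describes the letters and is not evidence of binding.

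The targeted gene, Arntl, had 267.4 and 272.2 RPKM of total RNA in knockout animals and 178.8 and 179.4 RPKM in wild-type animals. Its footprints were 123.7 and 106.9 RPKM in knockout animals, against 257.6 and 294.7 RPKM in wild-type animals. Footprints were thus lower and total RNA higher in the knockout, and the deleted part of Arntl is not named in the labels. RPKM is reads per kilobase and per 1000000 reads, and it is compared here only within a gene. The length behind it is not given, and RPKM cannot be read as a level of expression between genes. In total RNA of wild type 2, Car8 had 25694 RPKM from 54088 recovered reads, and Ppp1r17 10.5 RPKM from 3905. Their principal transcripts have 3853 and 1757 nt. Both knockout total RNA libraries (38.9 and 43.2 M recovered reads, where M is 1000000) were deeper than both wild-type ones (25.6 and 27.8 M). All 8 markers were present in every library, with recovered reads from 488 for Pcp4 in footprints of knockout animal 3 to 241744 for Itpr1 in total RNA of knockout animal 3, so that no marker rested on values near 0.

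In total RNA no Purkinje cell marker was called different between the genotypes. The values of 7 of 8 markers were lower on average in knockout than in wild-type cerebellum, by log2 fold changes between -0.02 and -0.21, and Lhx1 was higher by 0.275. The median of the 8 log2 fold changes was -0.13, beside -0.02 over all 12690 genes tested, and 53.3% of all genes were below 0. A call means an adjusted p under 0.05 by limma on log2(RPKM + 1), and 4.09% of all genes were called, 2.48% higher and 1.61% lower. By limma 1 marker, Calb1, had an unadjusted p under 0.05, as 22.1% of all genes did, and by limma-voom on the recovered reads it was the 1 marker called (13.1% of all genes).

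Calb1 had 1016 and 1132 RPKM of total RNA in knockout animals, against 1227 and 1262 RPKM in wild-type animals. The lower wild-type value stood above the higher knockout value, so the groups did not overlap. The mean was 1074 ± 81.7 RPKM in knockout and 1245 ± 25.0 RPKM in wild type (SD, n = 2 each), a log2 fold change of -0.21 (SE 0.08, 95% interval -0.41 to -0.02, adjusted p = 0.199 by limma). By limma-voom the log2 fold change was -0.24 with an adjusted p of 0.0347. RPKM in tissue is a share of all reads. Fewer Purkinje cells, less of the transcript in each cell and more RNA from other cells cannot be told apart.

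Of the calcium store genes, Itpr1 had 4893 and 5526 RPKM in knockout animals and 5267 and 6129 RPKM in wild-type animals. Car8, whose protein acts on the Itpr1 product, had 23728 and 26035 RPKM in knockout animals and 25694 and 29885 RPKM in wild-type animals. In both genes the higher knockout animal lay between the wild-type animals, and animal 3 was the higher one of each genotype. The log2 fold changes were -0.13 for Itpr1 (95% interval -0.37 to 0.12, adjusted p = 0.502) and -0.16 for Car8 (-0.38 to 0.06, adjusted p = 0.369), and the wild-type animals differed from each other by 0.22 in both genes.

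Pcp4, the calmodulin modulator, had 39.4 and 45.7 RPKM in knockout animals and 48.1 and 45.7 RPKM in wild-type animals. Its groups did not overlap, but the nearest animals, knockout 3 at 45.70 and wild type 3 at 45.74 RPKM, were almost level (log2 fold change -0.14, 95% interval -0.40 to 0.12, adjusted p = 0.486). Pcp2 was the steadiest marker within each genotype, with 942.0 and 943.4 RPKM in knockout animals and 1024 and 1033 RPKM in wild-type animals. The groups lay apart by a small step, and the log2 fold change was -0.125 (SE 0.07, 95% interval -0.29 to 0.04, adjusted p = 0.339). Ppp1r17, the phosphatase inhibitor gene, had 9.79 and 10.1 RPKM in knockout animals and 10.5 and 11.1 RPKM in wild-type animals. This was again a lower knockout pair (log2 fold change -0.11, 95% interval -0.36 to 0.14, adjusted p = 0.566).

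Of the 4 markers with a promoter window, only Slc1a6 had CACGTG, and the other markers were not searched. Slc1a6 had 41.9 and 41.3 RPKM in knockout animals and 40.2 and 44.3 RPKM in wild-type animals. Both knockout values lay between the wild-type values, and the log2 fold change was -0.02 (95% interval -0.25 to 0.21, adjusted p = 0.931). Lhx1, the transcription factor gene, was the marker with higher values in the knockout, at 39.6 and 34.9 RPKM in knockout animals and 32.5 and 28.7 RPKM in wild-type animals. Its groups did not overlap, its fold change was 1.21 (log2 0.275, SE 0.11, with a 95% interval from just under 0 to 0.55), and it missed the threshold (adjusted p = 0.226).

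Counted together, 4 of 8 markers (Calb1, Pcp2, Pcp4 and Ppp1r17) had both knockout animals below both wild-type animals in total RNA, where 30.3% of all genes did. Lhx1 had both knockout animals above, as 24.7% of all genes did, so that 5 of 8 markers did not overlap, beside 55.0% of all genes. No marker's 95% interval reached below a log2 fold change of -0.41, and none reached above 0.55. These intervals are for single genes and are not adjusted for the number of markers. After centring each gene on its mean, the median of the markers was -0.11 and -0.02 in knockout animals 1 and 3, and -0.005 and 0.085 in wild-type animals 2 and 3, on the log2 scale. Knockout 1 and wild type 3 thus stood at the ends, and without knockout 1 or without wild type 3 the median log2 fold change was -0.065 and -0.062, against -0.127 with all 4 animals.

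**Figure D1:**
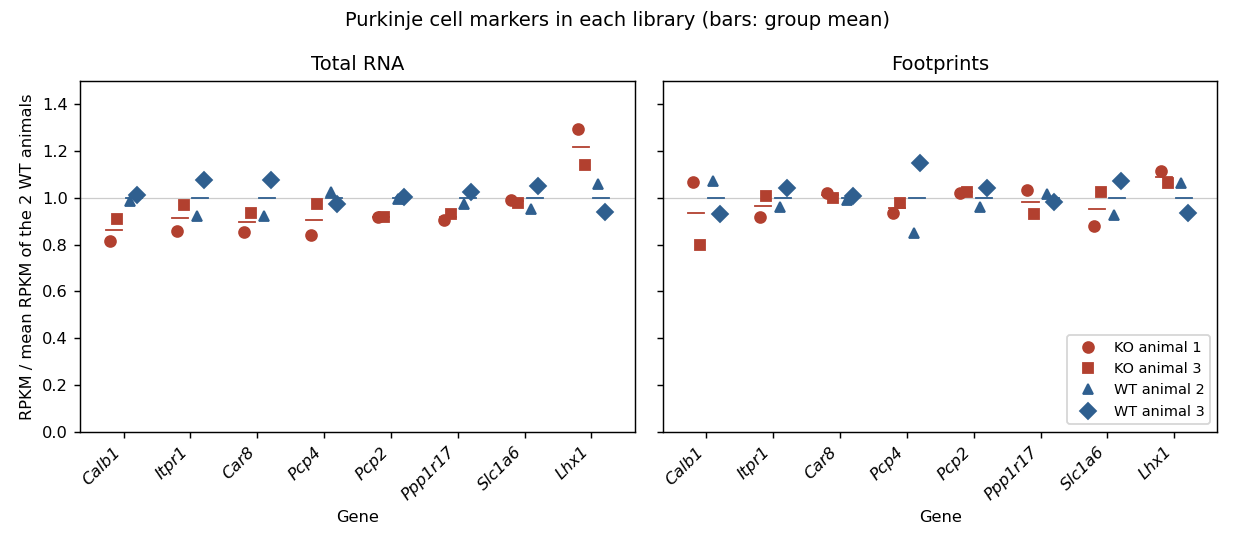
RPKM of the 8 markers in each library, divided by the mean of the 2 wild-type animals of the same gene, for total RNA (left) and footprints (right); points are animals and short bars are group means. In total RNA Calb1, Pcp2, Pcp4 and Ppp1r17 have both knockout animals below both wild-type animals and Lhx1 has them above, while in footprints the groups overlap for every marker but Lhx1.

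In footprints, which count ribosomes on all copies of an mRNA, no marker was called and the groups lay closer together. The median log2 fold change of the 8 markers was -0.033, beside -0.028 over all 12447 genes tested, with 5 of 8 markers below 0 and 55.2% of all genes. By limma 0.233% of all genes were called, 0.129% as higher. No marker had an unadjusted p under 0.05 by limma (10.4% of all genes), and limma-voom called none (1.63% of all genes). Lhx1 was the 1 marker whose groups did not overlap, with 49.2 and 47.0 RPKM in knockout animals and 46.9 and 41.3 RPKM in wild-type animals (log2 fold change 0.12, 95% interval -0.22 to 0.47, adjusted p = 0.873), and 17.1% of all genes had such an upward separation. No marker separated downward, as 22.6% of all genes did.

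Calb1, lowest in knockout total RNA, had footprints of 4543 and 3402 RPKM in knockout animals and 4554 and 3954 RPKM in wild-type animals. Knockout 1 was level with wild type 2, and the difference between the knockout animals (0.42 on the log2 scale) was larger than that between the genotypes (-0.11, 95% interval -0.52 to 0.30). Car8 was close to constant, at 22622 and 22113 RPKM in knockout animals and 21961 and 22281 RPKM in wild-type animals (0.02, 95% interval -0.18 to 0.21). Itpr1 had 4316 and 4749 RPKM in knockout animals and 4513 and 4890 RPKM in wild-type animals, with animal 3 the higher one of each genotype as in total RNA.

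Pcp2 footprints were 1551 and 1559 RPKM in knockout animals, inside the wild-type range of 1457 and 1581 RPKM. Ppp1r17 had 28.8 and 25.9 RPKM in knockout animals and 28.3 and 27.4 RPKM in wild-type animals, and here the knockout animals lay outside the wild-type pair on either side. Slc1a6 had 99.1 and 115.7 RPKM in knockout animals and 104.7 and 121.0 RPKM in wild-type animals, which overlap. Pcp4 had the fewest footprints, 488 to 632 recovered reads a library, and the widest interval, with 3.37 and 3.51 RPKM in knockout animals and 3.05 and 4.14 RPKM in wild-type animals (-0.04, 95% interval -0.58 to 0.50). Adjusted p by limma was between 0.873 and 0.981 for all 8 markers in footprints.

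Translational efficiency, the ratio of footprint RPKM to total RNA RPKM of an animal, was not called different for any marker. By limma 0.0165% of 12089 genes were called, and no marker had an unadjusted p under 0.05 (4.55% of all genes) or was called by limma-voom (0.00835% of all genes). The difference in efficiency was above 0 for 6 of 8 markers, with a median of 0.09 on the log2 scale beside -0.02 over all genes, and below 0 for 2 of 8, as for 53.4% of all genes. Since the ratio has total RNA as its denominator, it shares the total RNA values already given and is no separate evidence. Pcp2 had ratios of 1.65 and 1.65 in knockout animals, above 1.42 and 1.53 in wild-type animals (log2 difference 0.16, 95% interval -0.09 to 0.41, adjusted p = 0.997). Itpr1 had 0.882 and 0.859 in knockout animals, above 0.857 and 0.798 in wild-type animals, and Lhx1 had 1.24 and 1.35 in knockout animals, below 1.44 and 1.44 in wild-type animals. Such a separation upward was seen in 14.3% of all genes and downward in 17.5%, and the other 5 markers overlapped between genotypes.

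**Figure D2:**
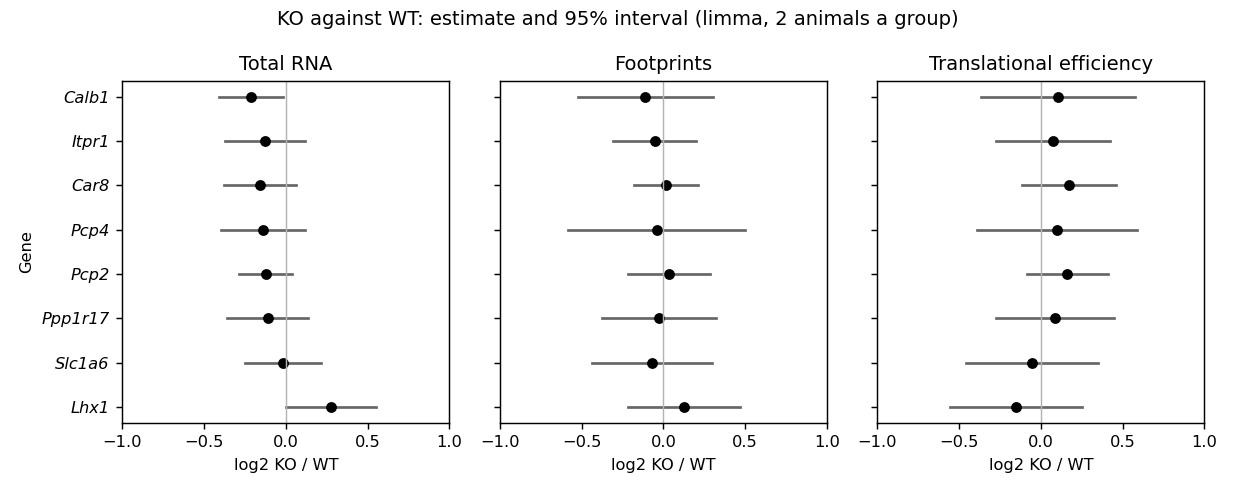
Log2 fold change of knockout over wild type (point) with its 95% interval (line) from limma for each marker, in total RNA, footprints and translational efficiency. In total RNA 7 points lie left of 0 and only the interval of Calb1 ends just short of it, and in the other panels every interval spans 0.

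The markers differed far more among themselves in translational efficiency than between genotypes. Calb1 had the highest ratio, 4.47 and 3.01 in knockout animals and 3.71 and 3.13 in wild-type animals, which put it at the 98.2 percentile of 11975 genes in wild type. Slc1a6 (2.36 and 2.80 in knockout animals, 2.61 and 2.73 in wild-type animals) and Ppp1r17 (2.94 and 2.57 in knockout animals, 2.68 and 2.46 in wild-type animals) followed and overlapped each other, at the 95.1 and 94.4 percentiles. A calcium buffer, a glutamate transporter and a phosphatase inhibitor thus carried many footprints for their RNA in all 4 animals. Pcp2 and Lhx1 came next and overlapped, at the 74.5 and 73.1 percentiles. Itpr1 and Car8 also overlapped, at the 41.6 and 39.7 percentiles, Car8 with ratios of 0.953 and 0.849 in knockout animals and 0.855 and 0.746 in wild-type animals. The steps from Calb1 to Slc1a6, from Ppp1r17 to Pcp2, from Lhx1 to Itpr1 and from Car8 to Pcp4 separated all 4 animals.

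Pcp4 stood at the bottom, with ratios of 0.0854 and 0.0768 in knockout animals and 0.0634 and 0.0904 in wild-type animals, against a median of 0.947 over all genes in knockout and 0.958 in wild type. Only 47 of the 11975 genes had a lower wild-type ratio. Its principal transcript has a coding length of 186 nt in 641 nt of mRNA, the shortest coding part of the 8 markers. For comparison, 88 genes with a coding length within 25% of that of Pcp4 had a median of 0.731 in wild type, and 3 of them lay below Pcp4. The labels do not state whether reads were counted over whole transcripts or coding parts, and the part of this in the ratio was not tested. Pcp4 lies for most of its span within Igsf5 on the same strand and shares 243 of its 1026 exon bases with it. Igsf5 was at or below 0.20 RPKM in every library. Pcp2 shares 941 of 1828 exon bases with Pet100 on the opposite strand, so that without strand the reads of these genes cannot be told apart, and Pet100 was at 12.9 and 14.0 RPKM of total RNA in knockout animals and 14.9 and 15.3 RPKM in wild-type animals.

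**Figure D3:**
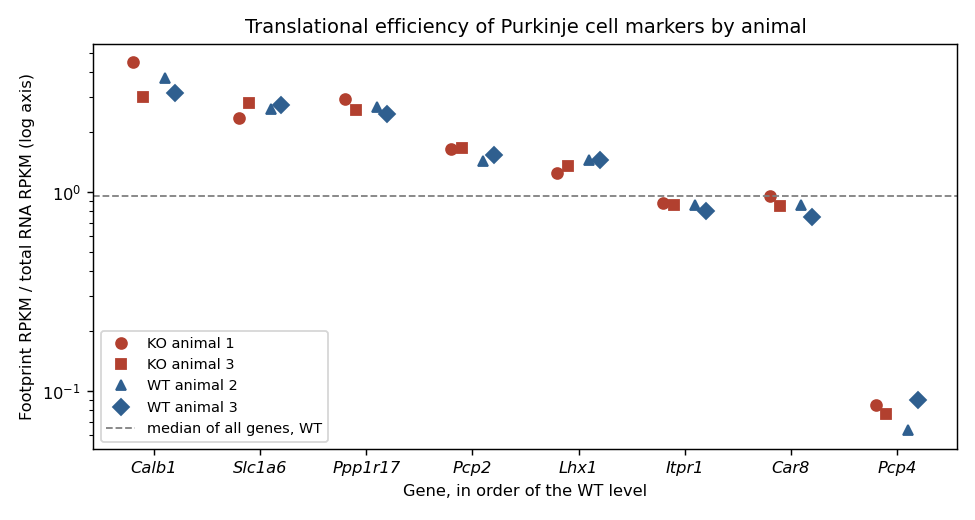
Footprint RPKM over total RNA RPKM (log axis) of each marker in each animal, ordered by the wild-type level; the dashed line is the wild-type median of all genes, 0.958. Calb1, Slc1a6 and Ppp1r17 lie above 2.3 in every animal and Pcp4 below 0.1.

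Footprint density was taken as recovered footprint reads per kilobase of coding length and per 1000000 reads. The region over which the reads were counted is not stated, so an order between genes assumes that they lie in coding parts. Reads of Pcp2 may also include those of Pet100. Calb1 led with 4596 and 3471 in knockout animals and 4599 and 3990 in wild-type animals, and 6 of 13866 genes were denser in wild type. Car8 (1931 and 1903 in knockout animals, 1871 and 1897 in wild-type animals), Pcp2 (936.5 and 949.6, against 878.7 and 952.1) and Ppp1r17 (791.9 and 718.6, against 776.5 and 750.8) followed. Each of these proteins is small, and by this measure their mRNAs were among the most heavily footprinted in the tissue, although Purkinje cells are few beside granule neurons. Itpr1 had 490.9 and 544.8 in knockout animals and 512.4 and 554.8 in wild-type animals, and Slc1a6 288.8 and 339.9 in knockout animals and 304.7 and 351.8 in wild-type animals. Pcp4 (82.9 and 87.2 in knockout animals, 75.0 and 101.6 in wild-type animals) and Lhx1 (46.5 and 44.8, against 44.2 and 38.9) were lowest of the 8, yet all were above the wild-type median of 14.7. Every step of this order separated all 4 libraries of one marker from all 4 of the next.

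**Figure D4:**
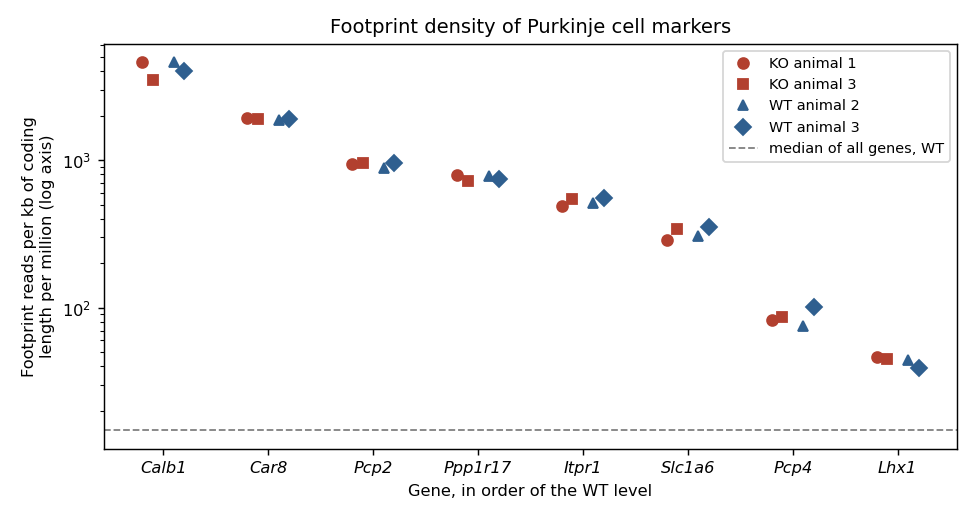
Footprint reads per kilobase of coding length and per 1000000 reads (log axis) for each marker in each animal, ordered by the wild-type level; the dashed line is the wild-type median of all genes, 14.7. No marker's 4 points reach those of its neighbour.

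Of 24 other genes known from Purkinje cells, none was called by limma in any comparison. In total RNA 15 had values above 0 and 9 below (median log2 fold change 0.06), and 53.3% of all genes were below 0. By limma 4 had an unadjusted p under 0.05 in total RNA, as 22.1% of all genes did. There limma-voom called 3 of the 24, all higher (13.1% of all genes in either direction), and none in footprints or efficiency. The extremes were Plcb3 (0.43, adjusted p = 0.0888), a phospholipase C beta gene, which was called by limma-voom (0.00663) and by limma where 100 reads on average were required (0.0494), and Foxp2 (-0.305, adjusted p = 0.247), a transcription factor gene. The markers' median was below 0 and that of the other Purkinje genes above, and the difference between the lists was not tested. In footprints the extremes were Plcb3 (0.47, adjusted p = 0.36) and Ebf2 (-0.54, adjusted p = 0.285), and in efficiency the highest value was that of Gng13 (0.49), a G protein gamma subunit gene. Foxp2 had 65.7 and 62.7 RPKM of total RNA in knockout animals and 70.1 and 90.1 RPKM in wild-type animals, and wild type 3 stood apart from the others.

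Of 22 genes of inositol trisphosphate and calcium signalling, which partly repeat that list, 1 was called by limma in total RNA and none in footprints or efficiency. By limma-voom 3 were called in total RNA, Itpr3 and Plcb3 as higher and Itpr2 as lower, and none in the other comparisons. In total RNA limma called 4.09% and limma-voom 13.1% of all genes. Itpr3, a paralog of Itpr1, rose to 10.9 and 9.07 RPKM in knockout animals, against 4.43 and 5.61 RPKM in wild-type animals (log2 fold change 0.87, SE 0.15, adjusted p = 0.0372). Its call was lost without knockout 1 (adjusted p = 0.211), knockout 3 (0.076) or wild type 2 (0.0834). Testing unfiltered genes ended it too (0.146). Its footprints, 4.63 and 4.59 RPKM in knockout animals and 3.52 and 3.33 RPKM in wild-type animals, were not called (0.34, adjusted p = 0.633). Itpr2 had the lowest log2 fold change in total RNA (-0.255, adjusted p = 0.285 by limma and 0.0468 by limma-voom) and in footprints (-0.32), and in efficiency the extremes were Erp44 (0.19) and Itpr3 (-0.525). In this list 14 genes were above 0 and 8 below in total RNA, and 53.3% of all genes were below.

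Around Pcp4, 8 genes of calmodulin and its kinases were tested. Camk4, a calmodulin kinase gene of granule neurons, rose to 978.8 and 924.3 RPKM of total RNA in knockout animals, against 718.6 and 719.8 RPKM in wild-type animals (0.40, SE 0.07, adjusted p = 0.0414), and this call was lost without any 1 of the 4 animals (adjusted p 0.0682 to 0.287). Testing unfiltered genes (0.114), dropping the variance trend (0.0948) and fitting all libraries together (0.0871) ended the call as well. Calm2, a calmodulin gene, had the lowest value (-0.30, adjusted p = 0.132 by limma) and was called as lower by limma-voom (-0.32, adjusted p = 0.0054). In footprints the extremes were Camk4 (0.32) and Camk2a (-0.18), and in efficiency Calm3 (0.21) and Camk2a (-0.49), none of them called. Summed reads of 12 granule neuron markers were higher in knockout total RNA, and the part of this in Camk4 was not tested.

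Around Ppp1r17, none of 11 genes of cGMP signalling and its phosphatases was called by limma. Of these, limma-voom called 1 in total RNA, Gucy1b1, as lower, beside 13.1% of all genes in either direction. In total RNA the extremes were the phosphodiesterase gene Pde9a (0.28) and Gucy1b1 (-0.31), a guanylate cyclase subunit gene with 80.6 and 87.5 RPKM in knockout animals and 98.0 and 110.8 RPKM in wild-type animals (adjusted p = 0.157 by limma and 0.0197 by limma-voom). In footprints 10 of the 11 were above 0 (median 0.14), from Pde5a (0.38) to Gucy1b1 (-0.16), while 55.2% of all genes were below 0. In efficiency the range ran from Prkg2 (0.38) to Pde9a (-0.14). Around Pcp2, none of 6 genes of inhibitory G proteins and their regulators was called by limma. In total RNA limma-voom called 3 of them, Gnai2 as higher and Gpsm2 and Gnai1 as lower, beside 13.1% of all genes. Gpsm2, which like Pcp2 encodes a protein that binds such G proteins, had 10.3 and 11.3 RPKM in knockout animals and 16.5 and 15.4 RPKM in wild-type animals (-0.53, adjusted p = 0.055 by limma, 0.0373 by limma-voom and 0.0294 by limma with the read filter), and Gnai2 was highest (0.32, adjusted p = 0.0242 by limma-voom). In footprints this list ran from Gnai2 (0.29) to Gnai1 (-0.42), and in efficiency from Gpsm2 (0.19) to Gnao1 (-0.28).

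Of the other glutamate transporter genes, 4 were tested and none was called by limma. Slc17a7, the vesicular transporter of granule neurons, was highest in total RNA (0.44, adjusted p = 0.0769 by limma, 0.0014 by limma-voom and 0.0365 by limma with the read filter) and footprints (0.37), and Slc1a3, the transporter of Bergmann glia, was lowest in total RNA (-0.06) and highest in efficiency (0.10). Slc1a2 was lowest in footprints (-0.14) and efficiency (-0.23). Around Lhx1, 7 genes were tested, namely LIM homeodomain factors, their partners and Skor2, and none was called by limma or limma-voom. Their values ran from Ssbp3 (0.18) to Ldb2 (-0.145) in total RNA. In footprints and efficiency they ran from Skor2 (0.236 and 0.275) to Lhx5 (-0.265 and -0.424). Lhx5, the closest paralog of Lhx1 in Purkinje cells, had 14.9 and 18.0 RPKM of total RNA in knockout animals and 14.8 and 14.3 RPKM in wild-type animals.

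None of the carbonic anhydrase genes related to Car8 was called by limma, of which 6 were tested in total RNA. Car12 had the largest fold change of this family, with 12.8 and 14.7 RPKM in knockout animals and 5.54 and 0.807 RPKM in wild-type animals (2.10, adjusted p = 0.0975). It was called by limma-voom (adjusted p = 3.66e-05 in total RNA and 0.0343 in footprints) and, in total RNA, by limma with the read filter (0.0342). Its log2 fold change became 3.03 on leaving out wild type 2 (adjusted p = 0.00213), and leaving out wild type 3 gave 1.17 (0.022), a call in both. Wild type 3 stood apart, as it did in the choroid plexus gene Ttr, with 11753 and 13916 RPKM in knockout animals and 5390 and 208.4 RPKM in wild-type animals. The 9 choroid plexus markers summed to 1832 and 2167 recovered reads per 1000000 of total RNA in knockout animals and 870.5 and 65.4 in wild-type animals. All 7 tested had values above 0 (median log2 fold change 2.11). Limma called 1 of them as higher (Sostdc1), and limma-voom called 6 as higher, beside 4.09% and 13.1% of all genes in either direction. The part of choroid plexus tissue in the Car12 values was not tested. Car11 was lowest in total RNA (-0.31), Car12 highest in footprints (2.325) and efficiency (0.23), and Car7 lowest in both (-0.38 and -0.28).

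Markers of other cerebellar cells were read in the same libraries, as summed recovered reads per 1000000 in total RNA. The 8 Purkinje markers summed to 8543 and 9512 in knockout animals and 9543 and 10660 in wild-type animals, mostly from Itpr1, Car8 and Calb1. The 24 other Purkinje genes summed to 10660 and 10694 in knockout animals and 10130 and 10631 in wild-type animals. Granule neuron markers summed to 8538 and 8488 in knockout animals, above 6885 and 7473 in wild-type animals. Of these 12 genes 9 had values above 0, limma called 2 as higher (Fat2 and Grin2c), and limma-voom 6 as higher. Over all genes limma called 4.09% and limma-voom 13.1%, in either direction. Oligodendrocyte markers were lower, at 4048 and 3910 in knockout animals and 6146 and 4528 in wild-type animals. Of these 10 genes 7 had values below 0, limma called 1 as lower (Mag), and limma-voom 5 as lower and 1 as higher. Microglia markers were lower too, at 164.8 and 173.6 in knockout animals and 227.7 and 233.5 in wild-type animals. All 10 had values below 0, limma called 2 as lower (C1qb and Ctss), and limma-voom 6 as lower. Interneuron markers summed to 1247 and 1206 in knockout animals and 1427 and 1347 in wild-type animals. They include Gad1, Gad2 and Slc32a1, genes of GABAergic neurons, which Purkinje cells are too, so this sum is not separate from Purkinje cells. Of these 11 genes 7 had values below 0, limma called 1 as lower (Eomes), and limma-voom 3 as lower and 1 as higher. Astrocyte and Bergmann glia markers summed to 5826 and 5794 in knockout animals and 6103 and 5836 in wild-type animals. Of these 12 genes 7 had values below 0, limma called 2 as lower (S100b and Gjb6), and limma-voom 3 as lower and 1 as higher. No marker of these lists was at 0 in any library. Of 7 tested brainstem genes, limma called Tph2 as higher and Slc17a6 as lower, and 6 had values below 0 (median -1.27). The other 5 are Hox genes, which were highest in wild type 2, such as Hoxa5 with 1.40 and 1.57 RPKM in knockout animals and 40.6 and 0.727 RPKM in wild-type animals. Hoxb4 had 0.316 and 0.284 RPKM in knockout animals and 27.65 and 0.439 RPKM in wild-type animals, so that wild type 2 stood apart. The part of these shifts in the Purkinje marker values was not tested.

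**Figure D5:**
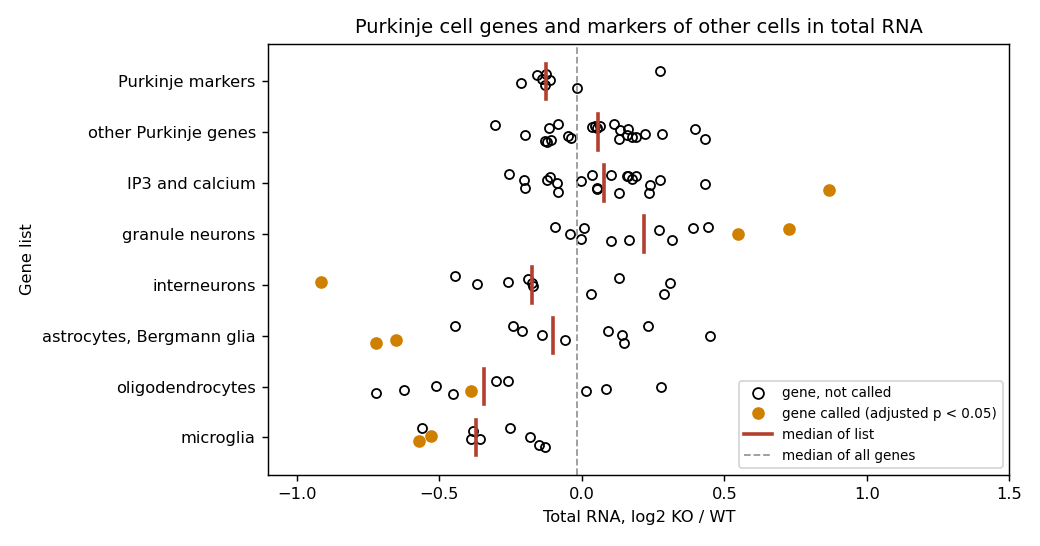
Total RNA log2 fold change of knockout over wild type for each tested gene of 8 lists; open points are genes not called, filled points genes called, the thick bar is the median of the list and the dashed line the median of all genes, -0.02. The Purkinje markers lie within -0.21 to 0.28 with a median of -0.13 and none is called.

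The genes whose profile over the 8 libraries came nearest to the median profile of the markers, centred within each kind of library, were Bcas2, Bace1, Os9, Mib1 and Vdac2. Their root mean square distance was 0.0156 to 0.0262 on the log2 scale, and their log2 fold changes were between -0.07 and -0.12 in total RNA and between -0.01 and 0.04 in footprints. The markers' own profile is nearly flat, so that likeness to it is shared by genes that vary little.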

How the data were processed

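Cerebellar total RNA and ribosome footprints of Bmal1 knockout and wild-type mice were measured in a series of 10 libraries, of which 8 have a column in the tables. The tools named are Cufflinks, STAR and Bowtie with the build mm10, per the submitters' processing notes, and their roles, versions and settings are not given in the sources used here. The deposited values per library are RPKM, per the file headers. The authors also deposited translational efficiency as a ratio, and all 47788 ratios checked lay within 2% of an animal's footprint RPKM divided by its total RNA RPKM. The authors' mean read count per gene, a coverage signal per the file headers, served with the steps between low RPKM values to recover whole reads for 13880 genes. Of 4392 recovered values in genes with a mean under 20, 99.93% lay within 0.1 of a whole number. Depth was 25.6 to 43.2 M recovered reads a library.

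Knockout and wild type were compared with limma 3.58.1 (R 4.3.3), fitted to log2(RPKM + 1) and allowing for a variance trend, where RPKM averaged 1 or more. For translational efficiency the term tested was the interaction between genotype and library kind. A call is a Benjamini-Hochberg adjusted p under 0.05 over all genes tested. The design of the tests assumed the same unit, and no sample was dropped or imputed. Alternatives were a pseudocount of 0.1, other filters, scalings and spreads, limma-voom on recovered reads, each animal left out, and the animal as a block. Per the labels' protocols each animal's footprints and total RNA share a lysate, so that the numbers pair them. The difference between the animals of a genotype correlated between footprints and total RNA at -0.004 in knockout and 0.259 in wild type, across 12089 genes, which are not independent.

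RPKM was compared within a gene only, since the length behind it is not given. Gene spans and coding lengths are from GENCODE M21, coding lengths being those of the principal transcript without the stop codon, and promoters from RefSeq on GRCm38.p6, the same build. All 8 markers were named in the text. Of each list of related genes, every called gene and the highest and lowest fold change were named, except for an item that is not reported here. The markers and lists were chosen with earlier results of these data known. The procedure was tested on simulated data with changes far larger than those of the markers. It therefore does not show whether changes of the markers' size would be found.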

Additional observations from a re-analysis of the deposited data

How the results depend on the processing

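No marker was called under any alternative except Calb1 in total RNA by limma-voom (1 marker called). The number of genes called over the whole table moved more. In total RNA it was 26 with no filter on low values, 798 when at least 100 reads on average were required, 217 with all libraries in one fit, 1621 by limma-voom and 117 to 563 with an animal left out, against 519. The footprint number was 17 at the smaller pseudocount (0.1), 1 without a filter, 57 with that read filter, 315 in one fit, 200 by limma-voom and 1 to 6 with an animal left out, against 29. For efficiency it was 5 at the smaller pseudocount, 0 without a filter, no variance trend, quantile normalization, the deposited ratio or any animal left out, 1 by limma-voom and 1 with the replicate block, against 2.

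With an animal left out, the markers' median log2 fold change was -0.174 to -0.062 in total RNA, and their median difference in efficiency 0.026 to 0.169, which was 0.134 by limma-voom. Signs of small values turned in 2 of 96, 11 of 96 and 6 of 104 marker values in total RNA, footprints and efficiency. In total RNA Slc1a6 was at 0.011 with median centring and -0.088 to 0.050 with an animal left out. In footprints an animal left out gave Calb1 -0.319 to 0.098, Pcp2 -0.024 to 0.093, Pcp4 -0.211 to 0.131, Car8 -0.001 to 0.032, Itpr1 -0.122 to 0.016, Ppp1r17 -0.099 to 0.048 and Slc1a6 -0.182 to 0.038. In efficiency it gave Calb1 -0.182 to 0.391, Pcp4 -0.106 to 0.308, Ppp1r17 -0.007 to 0.180 and Slc1a6 -0.174 to 0.068. Quantile normalization put Car8 at -0.544 in footprints and in efficiency, and Ppp1r17 at 0.003 in footprints. This method sets values by rank and gives equal ranks equal values. By RPKM Car8 ranked 1 in every total RNA library. In footprints Car8 ranked 5 and 6 in knockout animals 1 and 3, and 3 in both wild-type animals. Such ranks do not order genes by expression. Of other genes, Ldb2 in total RNA was at -0.454 to 0.163, Erp44 in efficiency at -0.090 to 0.462 and Car7 in efficiency at -0.579 to 0.027 with an animal left out, and Car12 in efficiency was at -0.030 by limma-voom. The replicate block changed no call of a marker. Leaving out an animal leaves 1 in its group, which is then assumed to vary like the other pair. Among the other genes named, 14 values in total RNA and 4 in footprints passed the threshold under an alternative and not in the reported fit, mostly by limma-voom or with the read filter. Except as given here, the cause of these shifts was not tested. The thinnest marker value rested on 488 reads.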

Other observations

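Purkinje cells fall into parasagittal bands, and the genes named here for the bands were chosen after their values were seen. Slc1a6, Aldoc and Plcb3 are known from bands positive for zebrin II, the product of Aldoc, which glia also express. Plcb3 had 116.6 and 130.9 RPKM of total RNA in knockout animals and 85.6 and 97.3 RPKM in wild-type animals (log2 fold change 0.43, adjusted p = 0.0888 by limma and 0.00663 by limma-voom), and its footprints were 147.3 and 185.8 RPKM in knockout animals and 120.9 and 117.1 RPKM in wild-type animals. Both knockout animals lay above both wild-type animals in each. Aldoc overlapped between genotypes, at 3145 and 3401 RPKM of total RNA in knockout animals and 3071 and 3265 RPKM in wild-type animals, as did Slc1a6.

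Plcb4, the phospholipase C gene of zebrin-negative bands, had 237.0 and 246.5 RPKM of total RNA in knockout animals and 282.3 and 273.3 RPKM in wild-type animals (-0.20, adjusted p = 0.207). Its footprints were 350.7 and 319.1 RPKM in knockout animals and 367.1 and 383.5 RPKM in wild-type animals. Ebf2, a transcription factor gene of these bands, had footprints of 17.6 and 17.0 RPKM in knockout animals and 24.1 and 27.3 RPKM in wild-type animals (-0.54, adjusted p = 0.285), while its total RNA overlapped. None of these genes was called by limma, and the difference between Plcb3 and Plcb4 was not tested.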
